A study of Homo sapiens with 18 samples.

Results

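RNA from LNCaP cells treated for 72 h with 0.2 µM ACBI was compared directly with RNA from LNCaP cells treated for 72 h with 10 µM enzalutamide (ENZA), over every gene in the deposited count table. The comparison took 6 of 18 libraries, 3 with ACBI and 3 with ENZA, and the 3 libraries of the DMSO vehicle were set beside them to place each level. LNCaP is a human prostate adenocarcinoma line, grown here in RPMI medium with 10% fetal bovine serum in every group. The study as a whole concerned inhibitors of the bromodomain of BRD7 in prostate cancer and used ENZA and ACBI among 5 compounds. The labels state no target for ACBI. A published degrader of the BAF chromatin remodelling ATPases SMARCA2 and SMARCA4 has a similar name, but the labels do not say whether ACBI is that compound. Since the doses differed, the contrast of the compounds is also a contrast of 0.2 µM with 10 µM, and the effects of compound and dose cannot be told apart.

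Enzalutamide blocks androgen signalling, by which androgens activate genes such as the prostate kallikreins while other genes are held down. LNCaP cells depend on this signalling for growth, and the genes it induces or represses serve as a readout of its activity. BAF and PBAF are large remodelling complexes that slide or evict nucleosomes with ATP and open chromatin at enhancers, including those bound by the pioneer factor FOXA1. Proliferating cells also run a cell cycle programme in which E2F factors drive DNA replication genes and the DREAM and MuvB complexes control mitotic genes.

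The 6 libraries held 21244710 to 36975028 counts over 20145 genes, and levels are given as CPM, counts scaled to a common library size. ACBI replicate 3 stood apart from its group: 8.6% of its counts were ribosomal RNA, while replicates 1 and 2 had 0.99% and 1.13%, and the ENZA libraries had 0.863% to 1.71%. It also stood apart over the other genes, where the chi-square per degree of freedom between libraries was 13.3 against replicate 1 and 8.85 against replicate 2, while replicates 1 and 2 differed by 2.7 and pairs within ENZA or DMSO by 2.23 to 3.03. The first principal component of all 18 libraries held 58.4% of the variance and placed the 3 ACBI libraries between -104.2 and -101.2, against 19.04 to 19.77 for the ENZA libraries and 22.17 to 23.36 for DMSO. Whether replicates were separate cultures is not given in the labels, and p-values here cover the spread among libraries alone, which may be technical. RNA of luminal markers was present in both groups: the summed level of 13 luminal markers was 6080 to 6280 CPM with ACBI, 6530 to 6680 CPM with ENZA and 10100 to 10200 CPM with DMSO, and 0 of the 13 had no count in any group. Single markers differed: against DMSO, 8 of the 13 were lower and 2 higher with ACBI, and 5 were lower and 5 higher with ENZA. Among all genes tested, 36.6% were lower and 35.4% higher with ACBI, and 18.1% were lower and 18.2% higher with ENZA. CDH1, the epithelial cadherin, alone had 1940 CPM with ACBI, 786 to 826 CPM with ENZA and 767 to 783 CPM with DMSO. ACP3, prostatic acid phosphatase, had 4.44 to 4.78 CPM with ACBI and 128 to 133 CPM with DMSO. Markers of immune cells summed to between 7 and 8.18 CPM with ACBI, 4.54 to 4.83 CPM with ENZA and 6.81 to 7.35 CPM with DMSO, and PTPRC, the leukocyte common antigen, had 0 counts in the ACBI libraries and 2 in the ENZA libraries. In bulk RNA a loss of cells of some kind and a loss of RNA per cell cannot be told apart.

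Most measured genes differed between the compounds. Of 15422 genes tested, 10807 (70.1%) passed an adjusted p of 0.05 in edgeR's quasi-likelihood test, with 5141 (33.3%) higher and 5666 (36.7%) lower in ACBI. Changes of at least 2-fold were more often falls: 1057 genes (6.85%) were at least 2-fold higher and 1897 (12.3%) at least 2-fold lower in ACBI. Set against DMSO, 11097 genes (72%) were called with ACBI and 5595 (36.3%) with ENZA; these contrasts share the DMSO libraries. The median log2 fold change over all genes was -0.02, with the middle of the distribution between -0.47 and 0.35. For 3375 genes (21.9%), some of them called, the 95% interval of the ratio reached at most 25% to either side, the larger level over the smaller. The 4615 genes not called outnumbered these, so some genes that missed the threshold had wider intervals. With a background of 70.1%, a gene's passing of the test says little alone, and the size and direction of the changes carry the description that follows. Without ACBI replicate 3 the test called 10649 genes, and no count of called genes over the whole table moved by more than 1.5 times when any 1 library was left out.

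**Figure D1:**
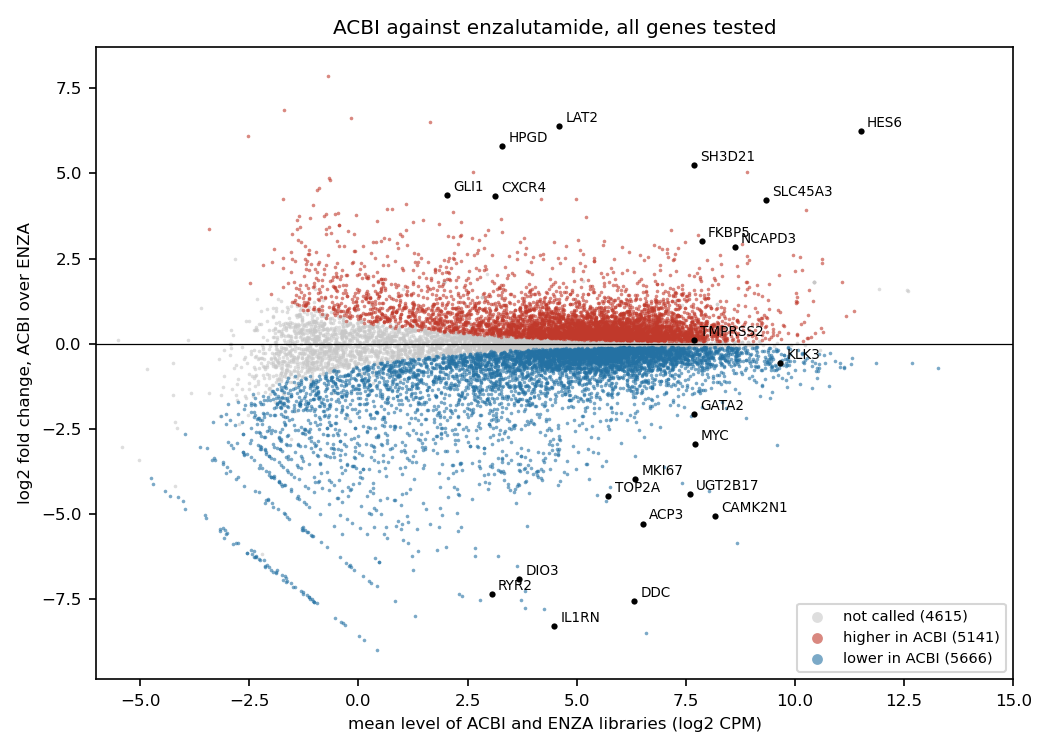
Log2 fold change of ACBI over ENZA (y axis) against the mean level of the 6 libraries in log2 CPM (x axis) for 15422 genes, with genes called higher in ACBI in red (5141), called lower in blue (5666) and not called in grey (4615). HES6 stands far above 0 and DDC and IL1RN far below it, while KLK3 and TMPRSS2 lie near 0.

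The androgen-induced genes did not follow 1 pattern, and most were higher in ACBI-treated than in ENZA-treated cells. Of 54 members tested, 42 were higher (77.8%) and 8 lower (14.8%) in ACBI, against 33.3% and 36.7% of all genes. Their median log2 fold change was 1.30 against -0.02 over all genes, and 31 were at least 2-fold higher, beside 6.85% of all genes. Against DMSO the same 54 genes had a median of 0.05 with ACBI, with 26 higher and 24 lower (35.4% and 36.6% of all genes), and of -1.15 with ENZA, with 5 higher and 46 lower (18.2% and 18.1% of all genes). The lists of genes were compiled from textbook knowledge with earlier results of these data known, so their direction is not independent evidence.

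Among the kallikreins, KLK3, which encodes prostate-specific antigen, lay far below DMSO with both compounds. It had 668, 668 and 626 CPM with ACBI, 959, 962 and 962 CPM with ENZA, and 4325, 4232 and 4276 CPM with DMSO. The ACBI libraries were all lower than the ENZA libraries, 1.47-fold (log2 fold change -0.56 ± 0.03 SE, edgeR adjusted p = 9.8e-16). KLK2, which encodes the related kallikrein hK2, had 34.2, 33.1 and 32.2 CPM with ACBI against 63.3, 64.2 and 62.9 CPM with ENZA, and 609, 591 and 589 CPM with DMSO. Its log2 fold change was -0.94 ± 0.04, again with no overlap between groups. KLK4, a kallikrein protease of the prostate, went the other way, averaging 350 CPM with ACBI, 83.0 CPM with ENZA and 195 CPM with DMSO (log2 fold change 2.08 for ACBI over ENZA, edgeR adjusted p = 2.7e-20).

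The window before the start of KLK3 is shown because this gene is the common clinical readout of androgen action and fell with both compounds; the capitals mark AGAACA, the 6 letters of an androgen response element half-site. The sequence is from RefSeq (GRCh38.p14, chr19:50854665-50854914, plus strand, ending 1 base before the transcription start).
KLK3: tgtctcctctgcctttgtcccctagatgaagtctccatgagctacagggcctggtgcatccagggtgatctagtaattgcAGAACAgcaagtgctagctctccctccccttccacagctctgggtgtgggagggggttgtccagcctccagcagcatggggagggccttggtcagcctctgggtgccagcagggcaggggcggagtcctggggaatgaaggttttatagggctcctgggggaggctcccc
The marked AGAACA lies 170 bases before the start. In windows of 300 bases (250 before the start and 50 after it), searched on both strands, AGAACA occurred in 3 of 40 androgen-induced genes with a window (7.5%), in 9.15% of 11687 tested genes with a window, and in 14.8% of all 35116 RefSeq windows. The exact palindrome, AGAACA and its inverted repeat TGTTCT spaced by 3 bases, was found in 0 of the 11687 windows. It was found in only 1 of all 35116 RefSeq windows. The search allowed no mismatch, so it cannot tell whether these windows hold imperfect palindromes. In the KLK3 window AGAACA is followed by gca and then agtgct, which matches TGTTCT in part. ACP3 and HPGD, the induced genes with the largest fall and the largest rise, held none of the motifs searched in the 250 bases before their starts. A match is a description of the letters and not a binding site, and androgen response elements at distant enhancers would lie outside these windows.

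TMPRSS2, the transmembrane protease whose promoter is the common fusion partner of ERG in prostate cancer, was nearly level between the compounds. It had 208, 217 and 211 CPM with ACBI, 192, 198 and 201 CPM with ENZA, and 805, 809 and 805 CPM with DMSO. The ACBI libraries were higher by a log2 fold change of 0.10 (95% interval 0.03 to 0.18, edgeR adjusted p = 0.013), a call lost when libraries were scaled by their totals and when ACBI replicate 2 or ENZA replicate 1 was left out (0.09 and 0.08). INPP4B, a lipid phosphatase that opposes PI3K signalling, averaged 7.05 CPM with ACBI and 6.86 CPM with ENZA, below 20.03 CPM with DMSO, and its interval of -0.21 to 0.30 shows how little difference could be resolved. UAP1, an enzyme of UDP-N-acetylglucosamine synthesis, and AADAT, an aminotransferase of lysine and tryptophan breakdown, had likewise fallen at least 2-fold from DMSO with both compounds, with ACBI over ENZA differences of -0.05 and 0.08 that did not pass.

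Other induced genes were above DMSO with ACBI and below it with ENZA. FKBP5, a co-chaperone of steroid receptors, had 405, 404 and 433 CPM with ACBI, 49.1, 50.6 and 53.1 CPM with ENZA, and 104, 96.7 and 96.3 CPM with DMSO. All ACBI libraries lay above, and all ENZA libraries below, the DMSO range, and ACBI was 8.13-fold above ENZA (log2 fold change 3.02 ± 0.04, edgeR adjusted p = 3.7e-30). SLC45A3, the prostate transporter prostein, had 1276, 1269 and 1110 CPM with ACBI, 62.1, 68.4 and 65.3 CPM with ENZA, and 445, 429 and 447 CPM with DMSO. It was 18.6-fold higher in ACBI than in ENZA.

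CENPN, a centromere protein on the androgen-induced list, averaged 779 CPM with ACBI, 103 CPM with ENZA and 514 CPM with DMSO, in contrast to the mitotic genes described further on. The same order held for ZBTB16, a zinc finger repressor also induced by glucocorticoids (253, 45.5 and 143 CPM in ACBI, ENZA and DMSO), and for MAF, a leucine zipper factor (159, 28.7 and 48.5 CPM). HPGD, the enzyme that inactivates prostaglandins, showed the largest rise on the list: 17.7, 16.3 and 23.6 CPM with ACBI, 0.376, 0.326 and 0.324 CPM with ENZA, and 9.72, 9.20 and 8.20 CPM with DMSO. Its log2 fold change was 5.80 ± 0.19, or 55.8-fold.

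NCAPD3, a condensin II subunit, had 690 CPM on average with ACBI, against 96.5 CPM with ENZA and 107 CPM with DMSO, so its level with ENZA was near that of DMSO. ACP3, which encodes prostatic acid phosphatase, had 4.78, 4.44 and 4.56 CPM with ACBI, 182, 173 and 181 CPM with ENZA, and 128, 132 and 133 CPM with DMSO. It was 38.7-fold lower in ACBI than in ENZA, the largest fall on the list, and was below DMSO only with ACBI.

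**Figure D2:**
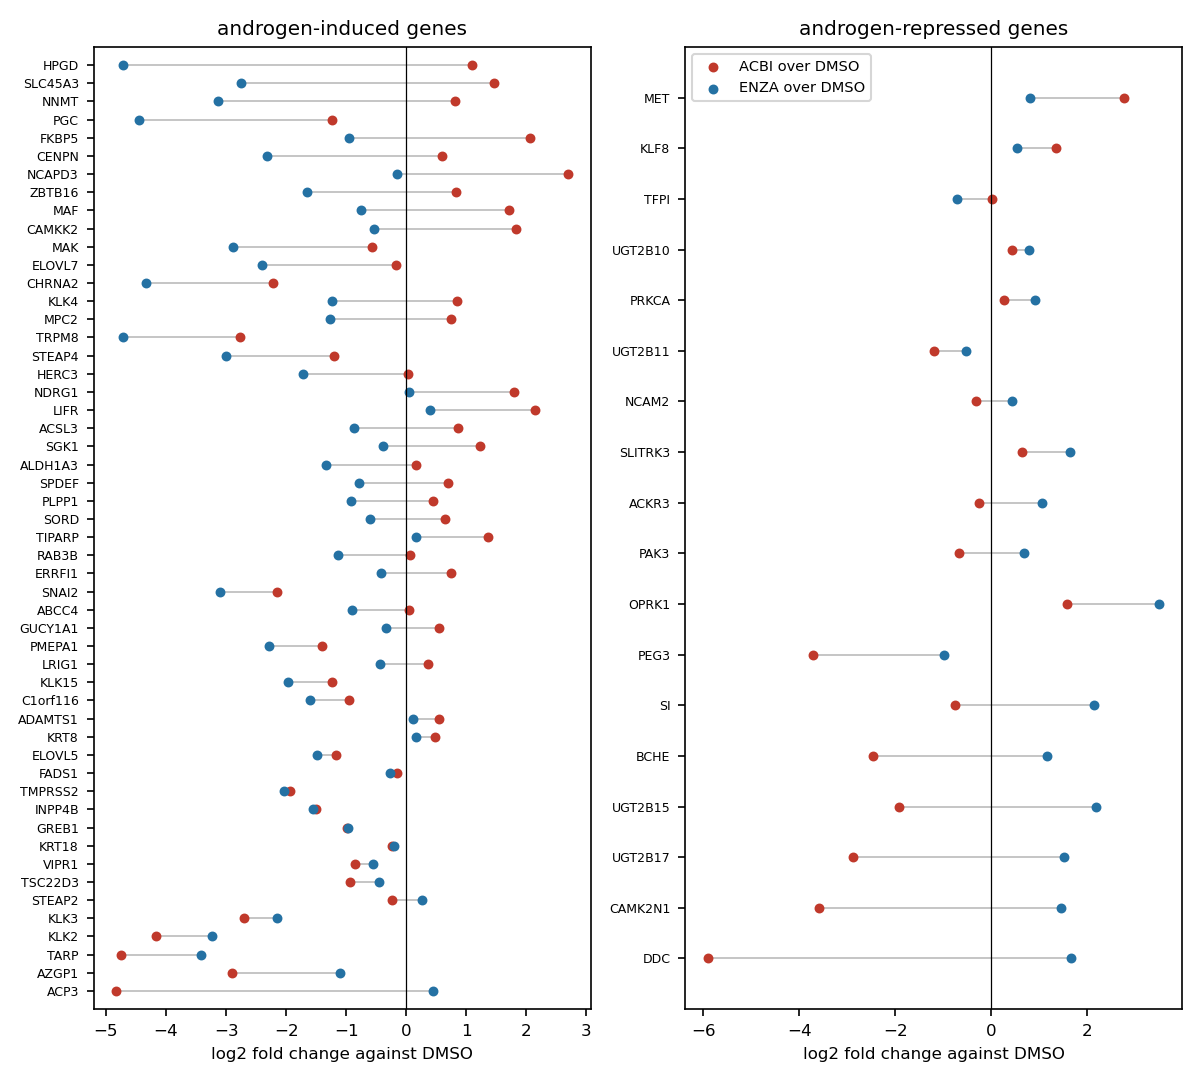
Log2 fold change against DMSO with ACBI (red) and ENZA (blue) for 52 androgen-induced genes (left) and 18 androgen-repressed genes (right), ordered by the difference of ACBI and ENZA; both contrasts share the DMSO libraries, and UGT2B7, with 0 counts in ACBI, is not drawn. Most induced genes have the red point to the right of the blue one, KLK3, KLK2, TARP and ACP3 do not, and most repressed genes show the reverse.

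Androgen-repressed genes were mirrored. Of 20 tested, 17 were lower and 3 higher in ACBI than in ENZA (background 36.7% lower and 33.3% higher). Their median log2 fold change was -1.34, and 12 were at least 2-fold lower, beside 12.3% of all genes. Against DMSO the list had a median of -0.50 with ACBI (6 higher, 12 lower) and 0.98 with ENZA (16 higher, 3 lower). The shares of all genes were 35.4% higher and 36.6% lower with ACBI, and 18.2% higher and 18.1% lower with ENZA. UGT2B17, a glucuronosyltransferase that inactivates androgens, had 17.95, 17.1 and 17.3 CPM with ACBI, 371, 357 and 381 CPM with ENZA, and 133, 130 and 123 CPM with DMSO. ACBI was below and ENZA above DMSO in every library, and the fold between the compounds was 21.1 lower in ACBI (edgeR adjusted p = 1.9e-33).

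UGT2B15, a close homologue of UGT2B17, averaged 18.9 CPM with ACBI, 323 CPM with ENZA and 71.3 CPM with DMSO; reads of these near-identical paralogues may be split between them by the counting. UGT2B7, of the same family, had 0 counts in the ACBI libraries and 18 in the ENZA libraries, which makes it at least 5.48-fold lower in ACBI when a floor of 3 counts over the group is used. CAMK2N1, an inhibitor of the kinase CaMKII, had 16.4, 15.4 and 18.7 CPM with ACBI, 574, 559 and 540 CPM with ENZA, and 198, 205 and 209 CPM with DMSO. That is 33.1-fold lower in ACBI. BCHE, butyrylcholinesterase, averaged 19.2 CPM with ACBI, 235 CPM with ENZA and 106 CPM with DMSO.

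OPRK1, the kappa opioid receptor, differed in that both compounds were above DMSO: 9.01, 8.57 and 7.498 CPM with ACBI, 29.2, 33.7 and 32.7 CPM with ENZA, and 1.98, 3.49 and 2.90 CPM with DMSO. ACBI was 3.82-fold below ENZA. The 3 repressed genes that were higher in ACBI were MET, the receptor of hepatocyte growth factor (log2 fold change 1.94), KLF8, a Krüppel-like factor (0.79), and TFPI, the tissue factor pathway inhibitor (0.72).

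**Figure D3:**
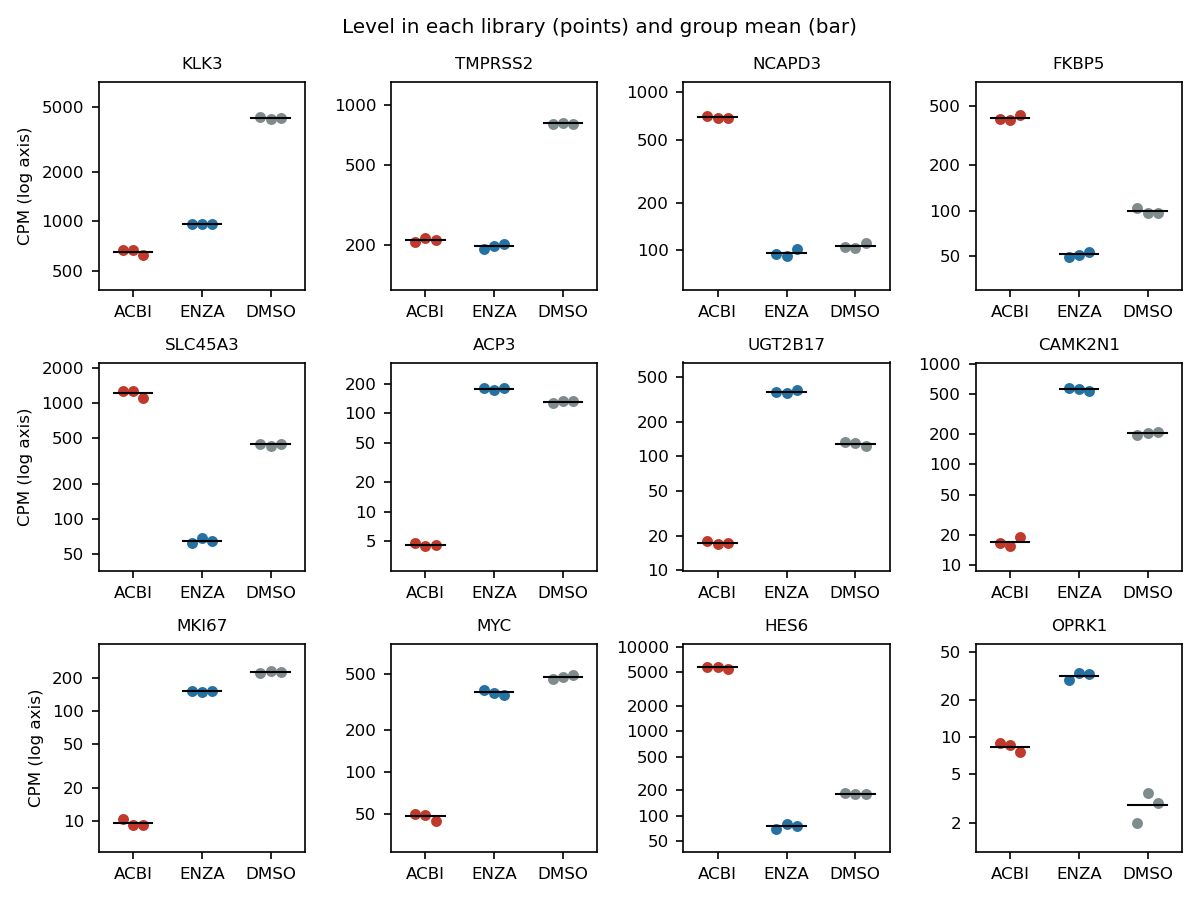
CPM on a log axis in each library (points) and the group mean (bar) for 12 genes, with ACBI in red, ENZA in blue and DMSO in grey. KLK3 and TMPRSS2 are low with both compounds; FKBP5 and SLC45A3 are above DMSO with ACBI and below it with ENZA, and UGT2B17 and CAMK2N1 are the reverse; MKI67 and MYC are low with ACBI.

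Of 26 prostate lineage regulators tested, 16 were higher (61.5%) and 7 lower (26.9%) in ACBI, against 33.3% and 36.7% of all genes. FOXA1, the pioneer factor of luminal cells, was 1.20-fold higher in ACBI, and HOXB13, a homeobox factor of the prostate, did not pass the test (log2 fold change -0.06, interval -0.14 to 0.03).

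GATA2, a zinc finger factor of the GATA family, had 86.9, 78.0 and 73.3 CPM with ACBI, against 337, 327 and 332 CPM with ENZA and 254, 254 and 256 CPM with DMSO. It was 4.18-fold lower in ACBI. NR3C1, the glucocorticoid receptor, was low in all groups and higher with ACBI, at 6.45, 9.09 and 7.54 CPM, against 1.74, 1.33 and 0.927 CPM with ENZA and 1.69, 2.88 and 1.47 CPM with DMSO. PGR, the progesterone receptor, had at most 0.0828 CPM in an ACBI library, against 2.60 to 3.71 CPM with ENZA and 0.607 to 0.802 CPM with DMSO. Of 14 glucocorticoid-responsive genes tested, 9 were higher (64.3%) and 4 lower (28.6%) in ACBI, against 33.3% and 36.7% of all genes. FKBP5, ZBTB16 and ERRFI1 stand on the androgen-induced list as well.

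The proliferation genes were lower with ACBI in nearly every member. Of 45 mitotic genes, 44 were lower in ACBI than in ENZA (97.8%, against 36.7% of all genes), 43 of them at least 2-fold, at a median log2 fold change of -3.32. Their median against DMSO was -4.03 with ACBI and -0.61 with ENZA. MKI67, the proliferation antigen Ki-67, had 10.5, 9.18 and 9.32 CPM with ACBI, 154, 149 and 154 CPM with ENZA, and 224, 235 and 231 CPM with DMSO. It was 15.7-fold lower in ACBI (edgeR adjusted p = 1.2e-30), and ENZA was itself below DMSO in every library.

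TOP2A, DNA topoisomerase II alpha, had 4.70, 4.52 and 4.56 CPM with ACBI, 101, 98.0 and 104 CPM with ENZA, and 156, 165 and 151 CPM with DMSO. With a log2 fold change of -4.46 ± 0.07 it was the mitotic gene that fell most. BIRC5, the chromosomal passenger survivin, averaged 5.98 CPM with ACBI, 68.6 CPM with ENZA and 103 CPM with DMSO. UBE2C, the ubiquitin-conjugating enzyme of the anaphase-promoting complex, averaged 1.37, 28.7 and 43.1 CPM in ACBI, ENZA and DMSO.

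CDK1, the mitotic kinase, was the exception. It had 76.1, 83.6 and 110 CPM with ACBI, 74.8, 71.6 and 71.2 CPM with ENZA, and 93.1, 91.1 and 81.2 CPM with DMSO. It was 1.24-fold higher in ACBI (edgeR adjusted p = 0.027), with the highest level in replicate 3, the library with 8.6% ribosomal RNA. With that library left out, and also with ENZA replicate 2 or 3 left out or with the 6 libraries fitted alone, 0 of the 45 mitotic genes were called higher. Its partner cyclins were lower in ACBI: CCNB1, cyclin B1, averaged 28.3 CPM with ACBI, 93.6 CPM with ENZA and 136 CPM with DMSO.

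DNA replication genes were lower in ACBI for 38 of 39 members (97.4%, against 36.7% of all genes), at a median log2 fold change of -1.67. Their median over DMSO was -1.97 with ACBI and -0.24 with ENZA. RRM2, the small subunit of ribonucleotide reductase, had 3.85, 3.74 and 4.23 CPM with ACBI, 79.9, 86.2 and 87.5 CPM with ENZA, and 133, 135 and 135 CPM with DMSO. It was 21.4-fold lower in ACBI. CDC6, a loader of the replicative helicase, had 1.59, 2.31 and 2.65 CPM with ACBI, 37.0, 35.5 and 31.9 CPM with ENZA, and 43.2, 47.7 and 44.6 CPM with DMSO. The helicase subunits MCM2 to MCM7 were all lower in ACBI, with log2 fold changes from -2.32 (MCM5) to -1.21 (MCM6). PCNA, the sliding clamp, averaged 43.5 CPM with ACBI, 113 CPM with ENZA and 113 CPM with DMSO. PRIM2, a primase subunit, alone was higher, with 22.3, 21.7 and 25.2 CPM with ACBI against 13.1, 15.2 and 13.7 CPM with ENZA.

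The promoter windows of TOP2A and CDC6 are shown as examples of mitotic and replication genes, which differ in the motifs that their windows hold. Whether the motifs bear on the size of the fall was not tested. TOP2A fell most among the mitotic genes. RRM2, the replication gene that fell most, held 0 E2F-like motifs and 1 CCAAT in the 250 bases before its start. CDC6 was shown in its place, chosen after the data were seen, as the replication gene with the largest fall that holds an E2F-like motif. Capitals mark CCAAT (or its complement ATTGG) in both, the CHR-like TTTGAA (or TTCAAA) in TOP2A, and the E2F-like TTTGGCGG in CDC6. Both are from RefSeq on GRCh38.p14, at chr17:40417897-40418146 on the minus strand for TOP2A and at chr17:40287629-40287878 on the plus strand for CDC6, written 5′ to 3′ and ending 1 base before the start.
TOP2A: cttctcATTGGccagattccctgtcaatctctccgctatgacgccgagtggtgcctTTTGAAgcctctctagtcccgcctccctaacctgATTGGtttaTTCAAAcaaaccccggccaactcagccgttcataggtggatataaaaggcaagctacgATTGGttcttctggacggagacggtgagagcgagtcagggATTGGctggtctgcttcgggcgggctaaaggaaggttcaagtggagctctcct
CDC6: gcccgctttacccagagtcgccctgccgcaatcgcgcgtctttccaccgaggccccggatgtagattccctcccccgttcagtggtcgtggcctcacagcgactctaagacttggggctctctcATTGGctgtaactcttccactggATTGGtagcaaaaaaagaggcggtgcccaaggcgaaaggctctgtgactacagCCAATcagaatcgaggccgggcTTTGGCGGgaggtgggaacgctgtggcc
A CHR-like motif (TTTGAA or TTCGAA, either strand) stood in the 300-base windows of 29 of 39 mitotic genes (74.4%), 2 of 32 replication genes (6.25%) and 11% of all tested genes. An E2F-like motif (TTTGGCGC, TTTCCCGC or TTTGGCGG) stood in 4 of 39 mitotic genes (10.3%), 17 of 32 replication genes (53.1%) and 4.65% of all tested genes. CCAAT stood in 79.5%, 50% and 36.8% of these sets. Among all genes at least 2-fold lower in ACBI the CHR-like share was 17.3% and the E2F-like share 6.58%, against 8.3% and 2.81% among genes at least 2-fold higher. In all RefSeq windows the shares were 16.4% (CHR-like), 2.89% (E2F-like) and 34.6% (CCAAT).

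Upstream of these genes, E2F1, the activator of the replication programme, had 5.05, 5.61 and 4.35 CPM with ACBI, 42.9, 43.5 and 39.9 CPM with ENZA, and 57.9, 57.6 and 59.7 CPM with DMSO. MYBL2, the MuvB partner B-Myb, had a log2 fold change of -4.03 and FOXM1, the mitotic forkhead factor, of -2.01. Of 32 G1/S genes tested, 22 were lower (68.75%) and 5 higher (15.6%) in ACBI, against 36.7% and 33.3% of all genes. CCND1, cyclin D1, was 2.16-fold lower in ACBI, at 216, 226 and 213 CPM against 466, 479 and 469 CPM with ENZA and 430, 427 and 441 CPM with DMSO. The CDK inhibitor CDKN1A was lower too (102 CPM with ACBI, 259 CPM with ENZA, 271 CPM with DMSO), while the inhibitor CDKN2B was 2.86-fold higher in ACBI, at 7.73 to 9.61 CPM against 2.69 to 3.15 CPM with ENZA.

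Growth and biosynthesis genes were lower in ACBI to a smaller degree. MYC, the growth-promoting transcription factor, had 50.1, 48.9 and 44.6 CPM with ACBI, 385, 368 and 354 CPM with ENZA, and 462, 473 and 490 CPM with DMSO, a 7.71-fold difference between the compounds (edgeR adjusted p = 2.8e-29). All 34 listed MYC targets and genes of ribosome biogenesis were lower in ACBI, at a median log2 fold change of -0.86, among them ODC1, the first enzyme of polyamine synthesis (-1.38), and NCL, nucleolin (-1.20). Cytosolic ribosomal protein genes were lower for 52 of 53 members (98.1%, against 36.7% of all genes), over a narrow range with a median of -0.53. RPS15 did not pass (-0.04). Against DMSO the ribosomal protein genes had a median of -0.46 with ACBI and 0.05 with ENZA.

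Stress and metabolic genes differed in direction by group. In the integrated stress response, ATF4 raises amino acid supply genes. Of 26 genes of this response, 22 were lower (84.6%) and 2 higher (7.69%) in ACBI, against 36.7% and 33.3% of all genes. Their median was -0.79, and the medians against DMSO were -1.50 with ACBI and -0.63 with ENZA. STC2, a secreted glycoprotein induced by ATF4, averaged 33.7 CPM with ACBI, 173 CPM with ENZA and 314 CPM with DMSO, and PHGDH, the first enzyme of serine synthesis, averaged 147, 535 and 613 CPM in the same order. The 2 higher genes were GDF15, a stress cytokine (log2 fold change 0.65), and ATF3, a stress-induced factor (0.71). Both were at or below the DMSO level with ACBI and lower still with ENZA: ATF3 had 67.6, 73.8 and 75.9 CPM with ACBI, 44.7, 44.1 and 43.7 CPM with ENZA, and 74.0, 73.4 and 75.8 CPM with DMSO.

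Of 24 cholesterol synthesis genes, 19 were higher (79.2%) and 3 lower (12.5%) in ACBI, against 33.3% and 36.7% of all genes, at a median of 0.57. Without ACBI replicate 3, and without ENZA replicate 2, 0 were called lower, and 1 was with the 6 libraries fitted alone. INSIG1, the sterol-regulated retention protein, had 197, 198 and 213 CPM with ACBI, 74.5, 76.8 and 75.1 CPM with ENZA, and 83.1, 85.0 and 82.2 CPM with DMSO. Hypoxia and glycolysis genes were lower for 23 (74.2%) and higher for 7 (22.6%) of 31 members, against 36.7% and 33.3% of all genes. LDHA, lactate dehydrogenase A, was 2.27-fold lower in ACBI, whereas HK1, hexokinase 1, was 1.93-fold higher and NDRG1, a hypoxia and androgen responsive gene, 3.37-fold higher. CA9, carbonic anhydrase 9, had 0 counts in ACBI and 30 in ENZA, at least 9.14-fold lower in ACBI.

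The unfolded protein response list had 14 lower (60.9%) and 5 higher (21.7%) of 23, against 36.7% and 33.3% of all genes. XBP1, its central transcription factor, had 100.2, 98.4 and 101 CPM with ACBI, 196, 200.5 and 204 CPM with ENZA, and 282, 268 and 260 CPM with DMSO. NRF2 targets had 15 lower (78.95%) and 3 higher (15.8%) of 19: FTH1, the ferritin heavy chain, was lower (-1.24) and HMOX1, heme oxygenase, higher (1.15). Heat shock genes had 11 lower (55%) and 4 higher (20%) of 20. HSPA1B, an inducible chaperone nearly identical to HSPA1A and so uncertain in its counts, was higher (0.74), and HSP90AA1 was lower (-0.80).

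Fatty acid synthesis genes were split evenly, 9 higher and 9 lower of 19 (47.4% each, against 33.3% and 36.7% of all genes). The acetyl-CoA carboxylase ACACA, which commits carbon to fatty acids, was higher (1039 CPM with ACBI, 520 CPM with ENZA), while the acyl-CoA synthetase ACSL1 was lower (-1.17). Of 15 steroid-converting enzymes 4 were higher (26.7%) and 5 lower (33.3%), both below the 33.3% and 36.7% of all genes; HSD11B2, which inactivates cortisol, averaged 5.10 CPM with ACBI, 43.1 CPM with ENZA and 47.0 CPM with DMSO. Nuclear-encoded respiratory chain subunits had 7 higher (21.9%) and 12 lower (37.5%) of 32, against 33.3% and 36.7% of all genes, at a median of -0.04.

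Genes of chromatin regulators differed in both directions. Of 28 BAF and PBAF subunits, 12 were higher and 12 lower in ACBI (42.9% each, against 33.3% and 36.7% of all genes), at a median of -0.04. Other remodelling and Polycomb genes had 15 higher (45.5%) and 11 lower (33.3%) of 33, with 1 at least 2-fold higher and 3 at least 2-fold lower. Both 2-fold counts lay below the shares of all genes, 6.85% at least 2-fold higher and 12.3% at least 2-fold lower. The falls of at least 2-fold were in HELLS, a helicase needed for DNA methylation (log2 fold change -2.95), CBX2, a Polycomb subunit (-1.47), and CHD5, a remodelling ATPase (-1.30), and the rise was in SMARCA1, an ATPase of the ISWI family (1.24). CHD5 and SMARCA1 were low in both groups, at under 2 CPM in every library, and the CHD5 libraries overlapped between ACBI and ENZA. The ATPase SMARCA4 had 204, 208 and 188 CPM with ACBI against 234, 237 and 234 CPM with ENZA (1.18-fold lower, edgeR adjusted p = 2.8e-06), and 224, 222 and 229 CPM with DMSO. SMARCA2, the other ATPase, was 1.09-fold lower (edgeR adjusted p = 0.023), a call lost with the 6 libraries fitted alone and when ACBI replicate 1 or 2 or ENZA replicate 1 or 3 was left out, at -0.13 to -0.09.

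The DNA-binding subunit ARID1A was 1.56-fold higher in ACBI, at 282 to 334 CPM against 195 to 198 CPM with ENZA. SMARCC1, a scaffold subunit, was 1.52-fold lower and SMARCD3, a subunit linked to muscle and heart enhancers, 2.16-fold lower. SMARCD3 averaged 14.9 CPM with ACBI, 32.1 CPM with ENZA and 17.0 CPM with DMSO, so the level with ENZA lay further from DMSO. BRD7 did not pass, with 53.4, 58.8 and 61.8 CPM with ACBI, 56.5, 58.3 and 59.5 CPM with ENZA, and an interval of the log2 difference of -0.13 to 0.12. BRD9, a subunit of non-canonical BAF, did not pass either (interval -0.19 to 0.04). These are RNA levels, and protein levels were not measured.

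Genes induced by inhibitors of BET bromodomain proteins were mostly higher in ACBI (9 of 12, with 3 lower). These were 75% and 25%, against 33.3% and 36.7% of all genes. Their median was 1.07, against 1.31 for ACBI and 0.20 for ENZA over DMSO. HEXIM1, the inhibitor of the elongation kinase P-TEFb, had 226, 214 and 228 CPM with ACBI, 102, 103 and 97.0 CPM with ENZA, and 84.9, 85.0 and 90.3 CPM with DMSO. The histone gene H2BC21 was 3.38-fold higher in ACBI; histone H2B genes are near-identical, so its counts may include those of relatives.

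Immune and signalling genes were mixed. Of 36 interferon-stimulated genes, 20 were lower (55.6%) and 12 higher (33.3%) in ACBI, against 36.7% and 33.3% of all genes. HERC5, the ligase that attaches ISG15, had 38.5, 39.5 and 40.6 CPM with ACBI, 4.37, 4.94 and 5.70 CPM with ENZA, and 4.60, 4.25 and 5.21 CPM with DMSO, and IFITM3, a membrane protein that blocks viral entry, was lower (log2 fold change -1.73). Antigen presentation genes had 10 lower (58.8%) and 4 higher (23.5%) of 17, with TAPBP, which loads peptides, among the higher ones (0.83). Of 29 p53 targets, 14 were lower (48.3%) and 9 higher (31.0%), with the share of higher genes near the 33.3% of all genes. Immediate-early genes were higher for 12 (54.55%) and lower for 7 (31.8%) of 22. EGR1, a growth-factor induced zinc finger factor, had 12.1 CPM with ACBI, 1.46 CPM with ENZA and 1.28 CPM with DMSO. In the BCL2 family the survival gene BCL2L1 was higher (1.05), and BCL2, which also blocks apoptosis, was lower (-1.73), within 5 higher (29.4%) and 11 lower (64.7%) of 17.

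Surface antigens of prostate cancer had 13 lower (59.1%) and 8 higher (36.4%) of 22, against 36.7% and 33.3% of all genes. FOLH1, prostate-specific membrane antigen, had 752, 779 and 819 CPM with ACBI, 1890.0, 1893 and 1970.0 CPM with ENZA, and 1326, 1324 and 1301 CPM with DMSO. It was above DMSO with ENZA and below it with ACBI, 2.45-fold apart. CXCR4, a chemokine receptor, had 18.2, 17.1 and 14.9 CPM with ACBI, against 0.986, 0.787 and 0.695 CPM with ENZA, and was 20.4-fold higher in ACBI. ACKR3, which binds the same chemokine, was lower in ACBI than in ENZA (log2 fold change -1.32), at 90.9 CPM with ACBI, 227 CPM with ENZA and 110 CPM with DMSO.

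The largest rises were led by genes of several kinds, named by a rule that asked for a mean of 4 CPM or more in 1 group and libraries that did not overlap. HES6, a helix-loop-helix regulator of the HES family (GRCh38 chr2:238238267-238240038), had 5773, 5882 and 5545 CPM with ACBI, 69.0, 80.7 and 75.2 CPM with ENZA, and 187, 180 and 184 CPM with DMSO. The ACBI libraries stood 76.3-fold above ENZA (log2 fold change 6.25 ± 0.06, edgeR adjusted p = 8.4e-31). LAT2, a signalling adaptor best known in immune cells, had 49.3, 49.3 and 44.7 CPM with ACBI against 0.611, 0.515 and 0.602 CPM with ENZA and 1.804, 1.92 and 1.29 CPM with DMSO. SH3D21, a protein with SH3 domains, had 413, 401 and 387 CPM with ACBI, against 12.1, 10.5 and 9.40 CPM with ENZA and 9.78, 11.0 and 10.3 CPM with DMSO.

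ENZA and DMSO thus lay together for SH3D21, while LAT2 was lower with ENZA than with DMSO. Of the others, CHRM4, the muscarinic M4 receptor, had 5.91, 7.09 and 5.47 CPM with ACBI, against 0.047, 0.0542 and 0.0927 CPM with ENZA, below the floor of 3 counts in each ENZA library. GRIN3A, an NMDA receptor subunit, had 59.9 CPM on average with ACBI, 3.12 CPM with ENZA and 33.6 CPM with DMSO. GALNT12, which starts O-linked glycans (5.05), GLI1, the effector of hedgehog signalling (4.38), TLL2, a tolloid-like metalloprotease (4.25), and HEY1, a Notch effector (4.10), were also among the 12. The list of hedgehog, Notch and HES genes had 9 higher (39.1%) and 7 lower (30.4%) of 23 tested, close to the 33.3% and 36.7% of all genes: NOTCH1, a receptor of that pathway, was lower (-1.50) and NOTCH3 higher (0.70).

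The largest falls reached further than the rises. DDC, the decarboxylase that makes dopamine and serotonin and which is on the androgen-repressed list, had 0.660, 1.04 and 0.829 CPM with ACBI, 165, 154 and 159 CPM with ENZA, and 53.6, 49.3 and 49.7 CPM with DMSO. IL1RN, the interleukin-1 receptor antagonist, had 0.155, 0.174 and 0.0829 CPM with ACBI, 45.7, 44.5 and 43.2 CPM with ENZA, and 9.25, 11.99 and 11.5 CPM with DMSO.

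For DDC and IL1RN the ENZA libraries were all above DMSO and the ACBI libraries all below. The same held for PLA2G2A, a secreted phospholipase A2 (log2 fold change -7.77), and PLD1, phospholipase D1 (-7.36). With ACBI these rested on 9 counts for PLA2G2A and 4 for PLD1, which was below the floor of 3 counts in each ACBI library. RYR2, a calcium release channel, differed: 0.0777, 0.0870 and 0.124 CPM with ACBI, 15.8, 16.3 and 17.2 CPM with ENZA, and 16.2, 17.4 and 18.4 CPM with DMSO. OR51E1, an olfactory-type receptor of the prostate (-7.79), the thyroid hormone deiodinases DIO1 (-7.52) and DIO3 (-6.92), and the long noncoding RNA PCAT1 (-7.26) were in the same group of falls. The ACBI libraries held 12 counts of OR51E1, 10 of DIO1, 15 of DIO3 and 13 of PCAT1, so the sizes of these falls are imprecise. GLP1R, the glucagon-like peptide 1 receptor, had 1 count in the ACBI libraries and 381 in the ENZA libraries, a ratio of 348 with an interval of 62.1 to 13790, and TM4SF1, a membrane protein, had 3 and 361 counts, a ratio of 110 (37.3 to 536); these intervals cover counting error only.

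Other genes lay on the same side of DMSO with both compounds. TXNIP, which binds thioredoxin and limits glucose uptake, had 350, 359 and 357 CPM with ACBI, 396, 388 and 386 CPM with ENZA, and 126, 119 and 118 CPM with DMSO. The compounds differed by a log2 fold change of -0.13 (95% interval -0.20 to -0.06), with ACBI lower in every library. CERK, ceramide kinase, averaged 47.7 CPM with ACBI, 27.8 CPM with ENZA and 11.2 CPM with DMSO. NRG3, an ERBB4 ligand, averaged 13.7, 11.6 and 3.41 CPM in ACBI, ENZA and DMSO, and GRIK2, a kainate receptor subunit, 11.5, 9.23 and 3.28 CPM. SESN3, a stress-induced regulator of mTORC1, and SLC44A3, a choline transporter-like protein, were above DMSO with both compounds and did not pass between them (intervals -0.30 to 0.03 and -0.04 to 0.31).

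Markers of neuroendocrine, mesenchymal and basal cells went in both directions within each list. Of 21 neuroendocrine markers listed, 7 were tested: SYP, synaptophysin, had 13.6, 14.53 and 15.04 CPM with ACBI, 2.72, 2.28 and 2.08 CPM with ENZA, and 2.62, 2.48 and 2.05 CPM with DMSO. SCG3, a secretogranin, had 75 counts in the ACBI libraries and 3 in the ENZA libraries, a ratio of 27.4 (9.01 to 136, counting error only), and ENO2, neuronal enolase, was higher by 0.32 on the log2 scale. EZH2, the Polycomb methyltransferase, and DLL3, a Notch ligand, were lower (-0.93 and -0.64). CHGA, chromogranin A, had 8 counts in the ACBI libraries and 0 in the ENZA libraries, and CHGB, chromogranin B, had 18 and 1. SCG2 (3 and 6 counts) and NTS (6 and 19 counts) went the other way. All of CHGA, CHGB, SCG2 and NTS had too few counts to be tested. The summed neuroendocrine level was 103 to 110 CPM with ACBI, 91.9 to 96.3 CPM with ENZA and 90.9 to 93.5 CPM with DMSO. ENO2 was the largest part of this sum, at 65.7 to 75.2 CPM with ACBI and 53 to 58.9 CPM with ENZA.

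Of 18 mesenchymal markers, 9 were tested, with 2 higher (22.2%) and 4 lower (44.4%) in ACBI, against 33.3% and 36.7% of all genes. FN1, fibronectin, set their summed level: it averaged 2636 CPM with ACBI, 505 CPM with ENZA and 973 CPM with DMSO, whereas VIM, vimentin, was lower in ACBI (log2 fold change -1.55). CDH1, the epithelial cadherin, was 2.41-fold higher in ACBI. Of 10 basal markers 4 were tested, with 1 higher and 3 lower in ACBI. The higher one was KRT14, a basal keratin, at 1.12 CPM with ACBI, 0.0807 CPM with ENZA and 1.65 CPM with DMSO. It rested on 82 counts with ACBI and 6 with ENZA. ITGA6, ITGB4 and LAMB3 were lower (log2 fold changes -0.51, -0.63 and -2.73). The summed level of the basal markers was 37.1 to 42.1 CPM with ACBI, 55.2 to 57.4 CPM with ENZA and 66.4 to 78.9 CPM with DMSO. The part of such markers in any result above was not tested.

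Genomic length had a small association with the difference. In 5 equal bins of the genes' span, with 39 genes over 3 Mb left aside, the median log2 fold change of ACBI over ENZA was -0.06 in the shortest bin and 0.07 in the longest, and in the longest bin 40% of genes were called higher and 32.3% lower. By chromosome, with chromosome Y left aside, medians ran from -0.13 on chromosome 16 to 0.09 on chromosome 18.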

How the data were processed

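LNCaP cells were profiled by stranded mRNA sequencing, 3 libraries a group. The submitters' processing notes name STAR, Partek and DESeq2 and genome build hg38; versions, the annotation and the counting program are not given in the sources used here. The authors deposited expected counts (estimated counts with decimals, 38.2% of values, not scaled to depth) for 20145 genes with positions, and a Length column that equals stop minus start in bases and was used here only as the genes' span; 0 columns of samples were left unused. Counting with decimals may divide reads between near-identical genes.

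Counts were rounded. The filterByExpr rule kept 15422 genes, and library sizes were scaled by TMM factors; CPM values use the scaled sizes. A robust quasi-likelihood model of all 18 libraries in 6 groups was fitted with edgeR 4.0.16 in R 4.3.3 (12 residual degrees of freedom), with two-sided F tests and Benjamini-Hochberg adjustment over all genes tested. A gene was called at an adjusted p under 0.05. Column totals of the 6 libraries compared ran from 21244710 to 36975028, and 3 counts equal 0.0814 to 0.141 CPM in 1 library. Tested on simulated data (15261 genes of this comparison), 66%, 94%, 100% and 100% of genes set at folds of 1.25, 1.5, 2 and 4 were recovered, and 7.22% of 194 calls were false. Only 50 genes at each fold, all over 4 CPM on average, were made to differ, and each gene had the same spread in all libraries. In the real data 70.1% of genes were called and ACBI replicate 3 stood apart. The rates for the real calls and for genes of low level were not tested.

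The comparison, the 35 gene lists and the rule for named genes were chosen with earlier results of these data known. The rule took the 12 largest rises and falls (adjusted p under 0.05, at least 4 CPM, separate libraries), the 4 members of each list with the smallest p, 6 genes for each position of the compounds around DMSO, genes at least 2-fold from DMSO whose interval of the difference reached at most 25% to either side, and a panel of 38 genes; not all are printed, and other list members are printed as examples chosen after their values were seen. The values of some genes the rule named are not reported here, though counts and medians over lists include them. Mitochondrially encoded genes were listed, and 0 of 13 were measured. Promoter windows were matched by symbol to RefSeq for 11687 of the 15422 genes tested; for 9049 the start equalled the deposited 5′ end. Alternatives were DESeq2 1.42.0, RLE factors, library totals, no filter or a stricter one, a fit of the 6 libraries alone, a replicate block, no ribosomal RNA genes, and each library left out in turn. Figures were drawn with matplotlib 3.10.9.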

Additional observations from a re-analysis of the deposited data

How the results depend on the processing

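The 5 counts over all genes stayed within 1.5 times of the reported ones under the 14 alternatives run (70 values): genes called ranged from 10177 (the 6 libraries alone) to 11075 (no filter on low counts), with 10598 by DESeq2, and 0 called genes changed sign. Leaving out 1 library gave 10211 to 10649 calls (10649 without ACBI replicate 3). Library totals in place of scaling factors put 43.1% of calls on the higher side, against 47.6%. Replicate numbers were not treated as pairs, since residuals of same-numbered ACBI and ENZA libraries correlated at 0.0579, -0.0751 and -0.0285; with a replicate block 10725 genes were called, 10679 of them shared. Of 2642 values of named genes, 2592 kept their direction and call, 32 lost the call, 5 gained it and 13 reversed, each in a gene whose difference had not passed. BRD7 turned to 0.00744 (DESeq2), 0.00726 (RLE factors), 0.00263 (no filter) and 0.00895 (no ribosomal RNA genes), and INPP4B to -0.000846 (library totals). Leaving out libraries gave -0.0436 to 0.0554 for BRD7, -0.0323 to 0.172 for INPP4B, -0.0737 to 0.0559 for TSHZ3, -0.274 to 0.0332 for MT2A and -0.111 to 0.014 for HOXB13; the cause was not tested. Calls of MYLK, ADAM7, STEAP4, NRG3, GRIK2, SMARCA2 and TMPRSS2 were lost under some alternatives. List medians moved beyond the spread in 25 of 476 values and list counts by over 1.5 times in 11 of 952; the median of other chromatin genes was -0.003 under library totals, against 0.05. Depth limits genes near the floor of 3 counts, where folds rest on few reads.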

Other observations

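Further genes lay on opposite sides of DMSO with the compounds. SLC16A6, a monocarboxylate transporter family member, had 68.1, 66.2 and 71.8 CPM with ACBI, 4.46, 5.67 and 5.19 CPM with ENZA, and 11.8, 13.7 and 13.5 CPM with DMSO, and SCNN1B, of the sodium channel of epithelia, had 0.117, 0.0435 and 0.0414 CPM with ACBI, 5.92, 4.15 and 5.24 CPM with ENZA, and 1.34, 0.961 and 1.07 CPM with DMSO. ST6GALNAC1, a sialyltransferase of tumour-associated glycans, was near 0 with both compounds, at 0.777, 0.392 and 0.207 CPM with ACBI and 1.13, 0.868 and 0.927 CPM with ENZA, against 24.2 to 24.5 CPM with DMSO. Among p53 targets, SESN1, a stress-induced regulator of mTORC1, averaged 82.7 CPM with ACBI, 237 CPM with ENZA and 113 CPM with DMSO, and PLK2, a polo-like kinase, averaged 10.8, 55.9 and 55.8 CPM in the same order. The metallothionein MT1X, a metal-binding protein, was higher in ACBI than in ENZA (log2 fold change 1.68) and MT1G was lower (-1.43).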
